A study of Mus musculus with 9 samples.

Results

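MicroRNA precursor genes were selected on their level, as the rows of the deposited aortic expression table with the biotype miRNA and at least 1 FPKM in at least 3 of the 9 libraries. FPKM counts fragments relative to gene length and sequencing depth. The rule kept 105 of 2207 microRNA rows, in a table of 54532 genes. The mice were all Apoe-/-, without apolipoprotein E, and were 6 to 8 weeks old when a regimen of 24 weeks began. The CD group ate chow and the HFD group a high fat diet, and the HFD_IO group also ate high fat food and was given ammonium iron(III) citrate by intraperitoneal injection. Each group had 3 aortas, and the series asks by its title what iron overload does in atherosclerosis. The whole vessel was sequenced as total RNA, so every cell type of the wall and of the lesion contributed. The labels number the aortas but do not say that each came from a separate mouse, and the p-values below measure only the spread between these samples.

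A microRNA is made from a long primary transcript, in which the Drosha and Dgcr8 complex cuts out a hairpin that Dicer1 then trims to a short mature strand. The mature strand guides an Argonaute protein to messages that pair with its seed, the bases 2 to 8. Many microRNA genes lie in an intron of a longer gene, their host, and others have a primary transcript of their own. In arteries the pair Mir143 and Mir145a is known for its role in the contractile state of smooth muscle, and the family of Mir23, Mir27 and Mir24 for its roles in endothelial cells. The rows analysed here count reads over the annotated hairpin and are not a measure of the mature microRNA. Such reads can come from primary or precursor RNA, or from other RNA over the hairpin such as an unspliced host transcript. Which of these they come from was not tested.

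For 72 of the 105 genes the symbol matched a RefSeq microRNA on GRCm38.p6, with 119 mature sequences between them. The first set shows mature strands of the vascular microRNA genes on which the results turn, with the seed in capitals.
mmu-miR-23a-3p: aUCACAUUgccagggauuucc
mmu-miR-23a-5p: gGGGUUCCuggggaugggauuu
mmu-miR-23b-5p: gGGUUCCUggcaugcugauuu
mmu-miR-27a-3p: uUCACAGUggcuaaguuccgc
mmu-miR-365-3p: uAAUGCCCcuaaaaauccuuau
mmu-miR-365-1-5p: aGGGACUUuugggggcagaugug
mmu-miR-365-2-5p: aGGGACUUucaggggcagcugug
mmu-miR-10a-5p: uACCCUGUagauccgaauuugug
Among these 119 mature strands, 2 seeds were shared by more than 1 gene, and both belong to Mir365-1 and Mir365-2. Their common 3p strand has the seed AAUGCCC and their 5p strands have the seed GGGACUU. No other seed was shared among the 119 strands. For some genes, Mir23b among them, only 1 strand is in this set, so seeds shared through a missing strand were not examined.

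The second set shows strands of microRNA genes that lie in introns and that differed between the groups, again with the seed in capitals.
mmu-miR-5125: uCUGCCUGggauuuccuugu
mmu-miR-1898: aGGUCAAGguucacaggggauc
mmu-miR-3058-5p: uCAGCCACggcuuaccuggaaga
mmu-miR-1943-5p: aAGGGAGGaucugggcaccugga
mmu-miR-6955-5p: aGGGCCUCaggacucaggagguga
mmu-miR-7030-5p: uGGGGAGGuggcugugcuaguc
mmu-miR-7052-3p: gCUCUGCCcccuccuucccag
The third set gives whole precursor rows, because most of the reads fall on 1 sequence that the annotation holds several times. Gm23935 (chr16:11144125-11144181, plus strand) and Gm24270 (chr9:56223715-56223771, minus strand) are identical over 57 bases, and Gm24187 (chr13:9834469-9834525, minus strand) differs from them by 1 substitution, G11A, counted from the 5′ end and shown in capitals.
Gm23935: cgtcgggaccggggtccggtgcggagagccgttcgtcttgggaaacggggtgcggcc
Gm24270: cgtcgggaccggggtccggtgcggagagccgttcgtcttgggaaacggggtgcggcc
Gm24187: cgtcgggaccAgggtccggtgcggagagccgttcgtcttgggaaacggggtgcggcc
All coordinates are those of the table, which match the mouse build GRCm38 in GENCODE M21 for all 105 genes.

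The reads behind these genes were few. Whole reads could be recovered from FPKM and gene length in every library, with library totals from 16660963 to 18308450. In a gene of 75 bases 1 read is worth 0.721 to 0.821 FPKM, so such a gene can meet the rule with 2 reads in 3 libraries. In the shortest genes 1 read is enough, as in Mir7041 (52 bases), which entered with 1.04 to 1.06 FPKM in 3 libraries. The microRNA genes are 51 to 188 bases long with a median of 82, and the median over them of the median reads per library was 2. A count of 2 has an exact 95% Poisson interval of 0.242 to 7.22, and a count of 10 one of 4.8 to 18.4, for counting error only. The highest library held at least 10 reads for 40 of the 105 genes, at least 50 for 6, and those 6 (Gm23935, Mir145a, Mir143, Mir5125, Gm24270 and Mir23b) held 97.6% of all their reads. Gm23935 alone held 89.8%. At the edge of the rule, Gm44450 and Mir6979 had the last library needed at 1.01 FPKM, and Gm22066 at 0.999 and Gm26384 at 0.989 fell outside.

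The rule looks at levels over all groups, so a gene high in 1 group can enter through that group alone. Gm24135 and Gm23841 reached 1 FPKM in CD libraries only, Gm22655 in HFD_IO libraries only, and no gene in HFD libraries only. A further 27 reached it in CD and HFD_IO libraries and in no HFD library, among them Mir343, Mir1957a, Mir10a, Mir365-1 and Gm27415. A low level in HFD is part of how these 27 entered, so their tests against HFD are a description. Counts over the 105 genes are therefore given as description. A measure free of the rule is the number of all 2207 microRNA rows with a read, which was 143, 226 and 190 in CD, 125, 82 and 88 in HFD, and 175, 141 and 151 in HFD_IO. All CD and all HFD_IO libraries were above all HFD libraries. Without Gm23935 and Gm24270, the reads on all microRNA rows were 112, 130 and 166 for every 1000000 recovered reads in CD, 49.7, 22.3 and 25.6 in HFD, and 99.5, 50.2 and 56.1 in HFD_IO. All CD and all HFD_IO libraries were again above all HFD libraries, although HFD_1 came close to the lowest HFD_IO library. Most of these reads in every library fell on Mir145a, Mir143, Mir5125 and Mir23b, which are described below. The rows that did not meet the rule had 113, 242 and 170 reads in CD, 74, 38 and 41 in HFD, and 168, 93 and 125 in HFD_IO.

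**Figure D1:**
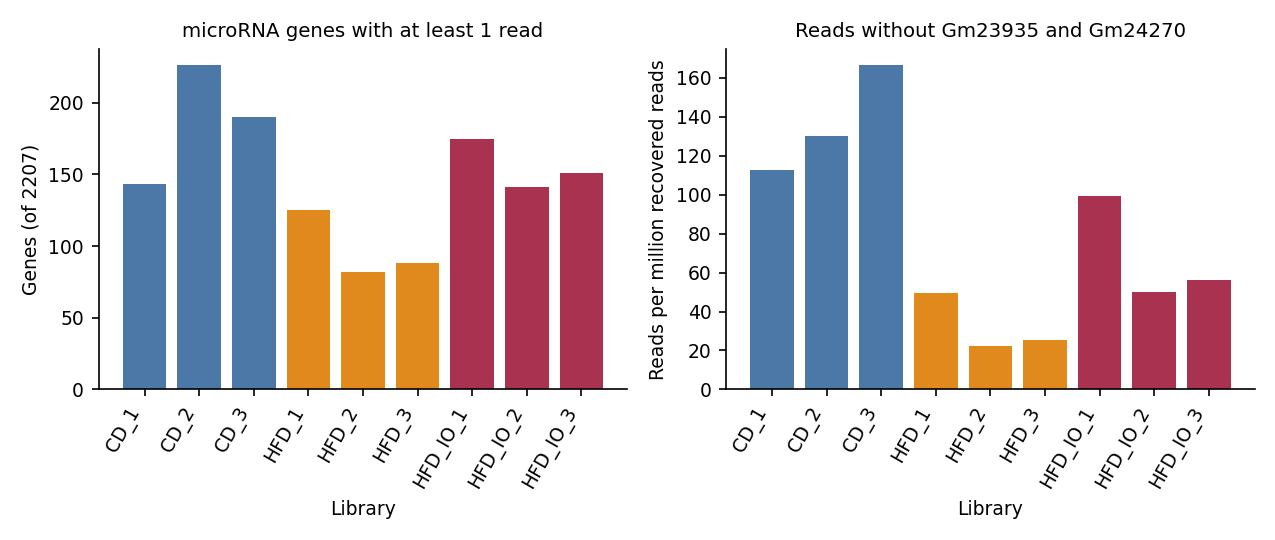
For each library, the left bars give the number of the 2207 microRNA rows with at least 1 recovered read and the right bars the reads on those rows for every 1000000 recovered reads, without Gm23935 and Gm24270. Blue is CD, orange HFD and red HFD_IO; the HFD libraries are the lowest on both measures, with 82 to 125 genes and 22.3 to 49.7 reads.

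Position in the genome went with detection. Of 1004 microRNA rows that lie within introns of other genes, 309 (30.8%) had a read, against 3 of 374 (0.802%) that lie wholly within an exon and 80 of 666 outside other genes. How reads over overlapping genes were assigned is not given in the sources used here, and its part in this was not tested. By the exons of GENCODE M21, 75 of the 105 genes lie within introns, 11 partly in an exon, 17 outside other genes and 2 (Mirlet7a-1 and Gm24970) wholly in an exon. The 4 genes of the Mir23b cluster on chromosome 13 show the split. Mir23b lies in an intron of 2010111I01Rik and had 20 to 237 reads per library, and Mir27b, Mir24-1 and Mir3074-1 lie wholly within exons and had no read in any library.

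A class with a distinct architecture stood out among the intronic genes. Of 64 genes inside an intron of a gene on the same strand, 20 end exactly at the last base of that intron, as do 209 of 944 such microRNA rows in the table, of which 62 had a read. Hairpins whose end is set by the splice site in this way are known as tailed mirtrons, which splicing releases without a cut by Drosha on that side. The 20 include Mir7052 in Josd2, Mir6955 in Gga1, Mir7030 in Rab35, Mir6993 in Fads1 and Mir7031 in Sh2b3, in introns of 180 to 9193 bases. In none of the 105 genes does the hairpin fill a whole intron, and the 22 rows of the table that do so had no read. Among the 20, 4 were lower in HFD than in CD (median log2 difference -1.10), and 11 of the other 44 (median -0.92), beside 17.6% of all genes tested. The first share is near that of all genes, and nothing is read from it about the class.

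The first comparison asks what the high fat diet changes in the Apoe-/- aorta. Of the 105 microRNA genes, 29 were lower in HFD than in CD and none was higher (limma on log2(FPKM + 1), Benjamini-Hochberg adjusted p below 0.05 over 13883 genes). Without adjustment, 41 were lower and 1 was higher at p below 0.05, and voom, limma's method for counts, run on the recovered reads called 17 lower and none higher. Among all genes tested, 17.6% were lower and 21.8% higher. The median log2 difference was -0.91 over the 105 genes and 0.06 over all genes, and 90 of the 105 were negative. In 27 of them the 3 HFD libraries lay wholly below the 3 CD libraries, and in none above, while the groups did not overlap in either direction in 50.7% of all genes. Of the 29 genes, 12 were also called when each library was left out in turn and under voom, among them Gm24135 and Gm23841, whose calls support nothing because they entered through CD alone. Mir10a and Gm27415 are also among the 12, and entered through no HFD library. Mir7030, another of the 12, could not have met the rule without its CD libraries. The median of -0.91 became -1.74 with a pseudocount of 0.1, -0.32 with one of 5 and -1.63 under TPM, which moved the median of all genes by -0.354. The fitted differences of genes with few reads depend on the 1 FPKM added before the logarithm. With genes that had no read in a group set to a floor of 3 reads over that group, the median was -1.21.

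**Figure D2:**
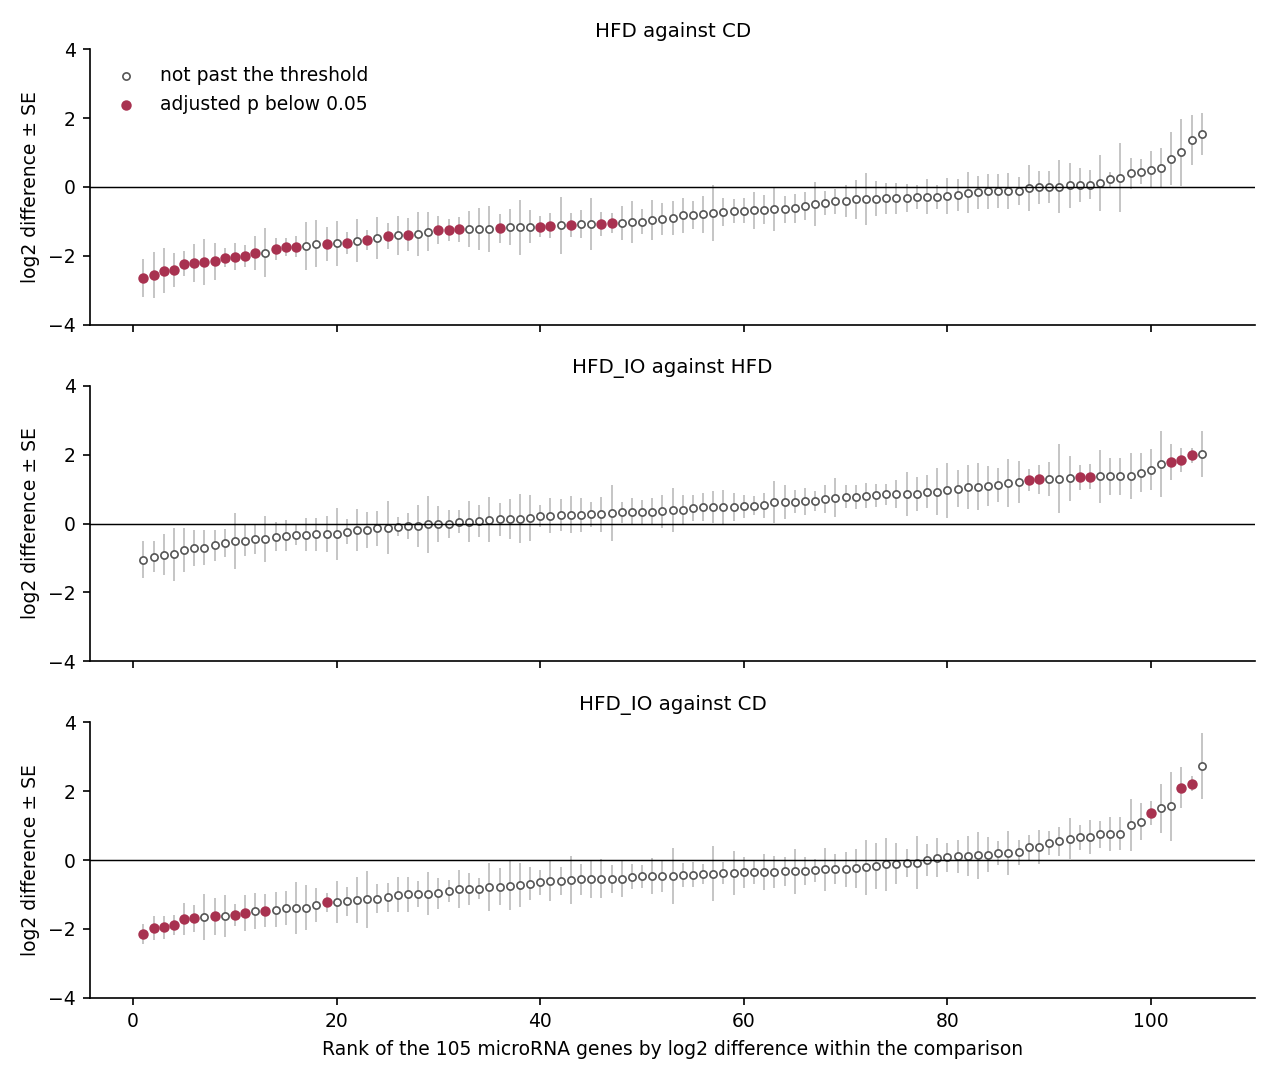
Each point is 1 of the 105 microRNA genes, ranked within a comparison by its log2 difference (vertical axis, with its standard error as a grey bar); filled points passed an adjusted p of 0.05. In HFD against CD, 29 are filled and all lie below 0, in HFD_IO against HFD 7 and all above 0, and in HFD_IO against CD 11 below and 3 above.

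Mir143 and Mir145a, the smooth muscle pair, are 1301 bases apart on chromosome 18, on the minus strand and with no overlapping gene in the annotation. Mir145a had 401, 634 and 1202 reads in the CD libraries, 246, 83 and 119 in HFD, and 758, 252 and 269 in HFD_IO. Every HFD library was below every library of the other groups. The mean level was 589 ± 323 FPKM in CD, then 125 ± 67.4 in HFD, then 337 ± 216 in HFD_IO (SD, n = 3 each), and the log2 difference of HFD from CD was -2.21 ± 0.54 (SE, limma adjusted p = 0.0123). Mir143 had 83, 277 and 497 reads in CD, 86, 28 and 39 in HFD, and 383, 129 and 158 in HFD_IO. Here CD_1 lay below HFD_1, so the groups overlapped, and the log2 difference was -2.18 ± 0.67 (limma adjusted p = 0.0296). Leaving out CD_2, CD_3, HFD_2 or HFD_3 ended the Mir143 call, as did voom (adjusted p = 0.0678), and the Mir145a call held in all of these.

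The markers of smooth muscle did not move the same way. Their 10 genes, all detected in every library, summed to 7227 to 8202 FPKM in CD, 10023 to 12432 in HFD and 3489 to 5811 in HFD_IO. In HFD against CD 3 of 10 were higher and none lower, and in HFD_IO against HFD 8 of 10 were lower, while Mir145a and Mir143 were at their lowest in HFD. The 10 macrophage markers summed to 349 to 497 FPKM in CD, 2381 to 4622 in HFD and 4204 to 7220 in HFD_IO, and the 10 endothelial markers to 554 to 749, 215 to 377 and 388 to 442. All smooth muscle and endothelial markers were above 0 in every library. Red blood cell markers summed to 4698 to 12410 FPKM in CD, then 8365 to 26143 in HFD, then 2593 to 4173 in HFD_IO, with 1 of 8 tested higher in HFD than in CD and 6 of 8 lower in HFD_IO than in HFD. Adipocyte markers summed to 282 to 536 FPKM in CD, then 707 to 1587 in HFD, then 222 to 543 in HFD_IO, with 4 of 10 higher and 1 lower in HFD than in CD and 3 of 10 lower in HFD_IO than in HFD. Adipocyte sums were higher in every HFD library than in any other, and the microRNA genes were lowest in HFD. For red blood cell markers, HFD_1 and HFD_2 lay below CD_1. Fibroblast markers summed to 1276 to 1604 FPKM in CD, 1697 to 2085 in HFD and 1303 to 1464 in HFD_IO. Of these 10 fibroblast genes, 3 were higher in HFD than in CD and none lower, and 4 were lower in HFD_IO than in HFD. In whole vessel RNA, fewer cells of a type and less RNA per cell cannot be told apart, and the part of these shifts in the microRNA results was not tested.

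**Figure D3:**
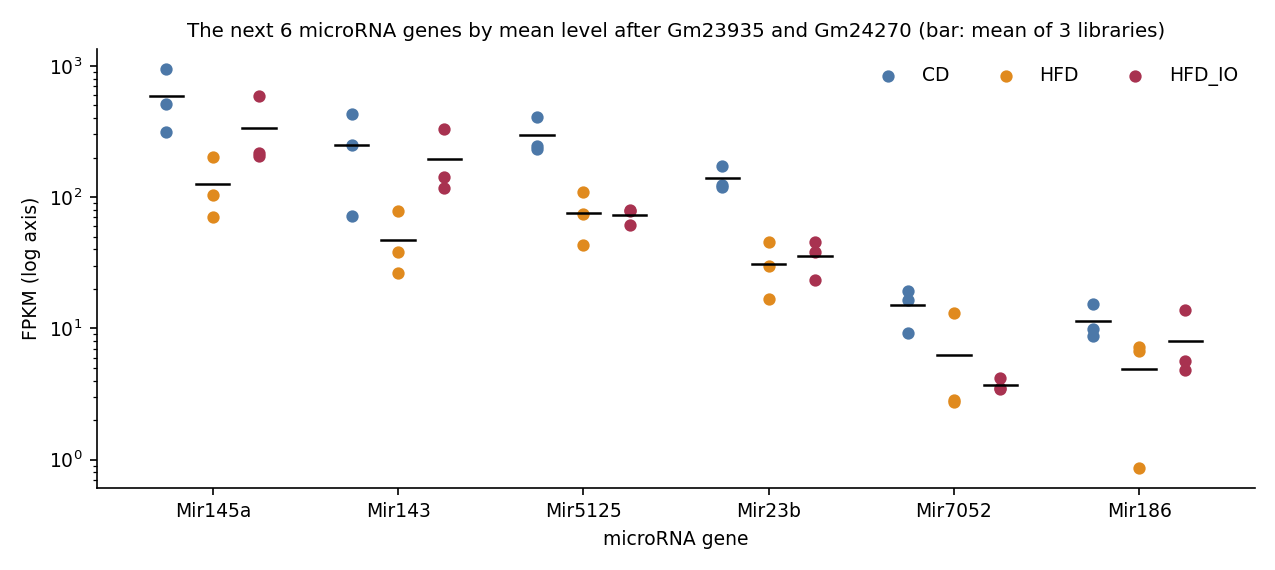
FPKM on a log axis for the 6 microRNA genes with the highest mean level after Gm23935 and Gm24270; each point is 1 library, colour marks the group and the bar is the mean of 3 libraries. In HFD Mir145a lies at 70.9 to 201 FPKM against 311 to 943 in CD, and Mir5125 and Mir23b stay at the HFD level in HFD_IO.

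Mir23b and the Mir23a cluster were lower as well. Mir23b (chr13:63300484-63300557) had 237, 161 and 161 reads in CD, 59, 37 and 20 in HFD, and 62, 30 and 50 in HFD_IO. Both high fat groups lay wholly below CD, with a log2 difference in HFD of -2.23 ± 0.36 (limma adjusted p = 0.00221). Mir23a (chr8:84208518-84208592), which has no overlapping gene, had 14, 19 and 17 reads in CD, 7, 0 and 1 in HFD, and 17, 3 and 5 in HFD_IO, a log2 difference in HFD of -2.55 ± 0.67 (limma adjusted p = 0.0162). Its neighbour Mir27a, 79 bases downstream, had 3, 11 and 11 reads in CD, 2, 1 and 2 in HFD, and 3, 4 and 2 in HFD_IO. Both genes of this cluster were below every CD library in all HFD libraries, and Mir24-2, next in the cluster, had 2 reads in all. The Mir27a difference was -1.44 ± 0.38 (limma adjusted p = 0.0167) and was lost without CD_2, CD_3 or HFD_2, and that of Mir23a without CD_2 or HFD_2.

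Mir365-1 and Mir365-2 share their mature 3p strand and did not give the same picture. Mir365-1, antisense within the lncRNA gene Gm15738, had 3, 21 and 15 reads in CD, 1, 1 and 0 in HFD, and 9, 2 and 1 in HFD_IO (log2 difference of HFD from CD -2.43 ± 0.65, limma adjusted p = 0.0174, lost without CD_2, CD_3 or HFD_3). Mir365-2 had 1, 5 and 4 reads in CD, 5, 2 and 2 in HFD, and 3, 4 and 0 in HFD_IO, and its log2 difference was 0.00 ± 0.46. The difference between the copies was not tested, and Mir365-2 was thinly read. Mir10a, a microRNA gene of the Hoxb cluster, had 3, 6 and 7 reads in CD, 1, 0 and 0 in HFD, and 2, 3 and 6 in HFD_IO. It was called lower in HFD (-1.64 ± 0.32, limma adjusted p = 0.00473) and its call held in every run with a library left out. Mir10a and Mir365-1 both entered through no HFD library, so their calls are a description.

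The other vascular microRNA genes were not past the threshold in HFD against CD. The list of vascular and macrophage microRNAs holds 79 symbols from textbook knowledge, of which 74 are in the table, 13 are among the 105 genes, 11 more had reads but at most 4 in a library, and 50 had none. Of those 50, 21 lie wholly within an exon of another gene. Of the 13 genes, 7 were lower in HFD (Mir145a, Mir143, Mir23b, Mir23a, Mir27a, Mir365-1 and Mir10a), with a median log2 difference over the 13 of -1.64, beside 17.6% lower among all genes and 27.6% among the 105. Among the 13, Mir365-1, Mir10a, Mir103-2 and Mir212 entered through no HFD library, so this count and this median are a description. Mir103-2 had 0, 15 and 6 reads in CD, none in HFD, and 1, 3 and 2 in HFD_IO, and missed the threshold (limma adjusted p = 0.0573). Mir212, the neighbour of Mir132, had 11, 2 and 0 reads in CD, none in HFD, and 0, 0 and 2 in HFD_IO. Reads of Mir99a lay mostly in CD_1, with 24, 2 and 2 in CD, 0, 4 and 2 in HFD, and 3, 5 and 5 in HFD_IO. Both of these CD groups therefore rest on CD_1. Mir199a-1 had 2, 4 and 9 reads in CD, 4, 1 and 6 in HFD, and 2, 2 and 5 in HFD_IO, and Mirlet7a-1, a let-7 gene, had 2, 5 and 0, then 2, 0 and 0, then 4, 5 and 0. At these depths a change of moderate size in them was not detectable.

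Besides Mir365-1 and Mir23b, the intronic genes with the largest falls past the threshold in HFD were Mir1898, Mir3058, Mir6955, Mir1943 and Mir5125. Mir5125 (chr17:23823291-23823369), in an intron of the splicing cofactor gene Srrm2, had 591, 323 and 354 reads in CD, 150, 57 and 95 in HFD, and 117, 85 and 110 in HFD_IO. Its level fell from 295 ± 97.1 FPKM in CD to 75.2 ± 32.7 in HFD, a log2 difference of -2.01 ± 0.33 (limma adjusted p = 0.00239). The groups CD and HFD did not overlap for any of these 5 genes. Mir1898 (chr15:12171492-12171574), in Zfr, had 28, 24 and 18 reads in CD, 4, 0 and 5 in HFD, and 12, 5 and 4 in HFD_IO. Mir3058 (chr10:95559231-95559321), in Nudt4, had 8, 28 and 19 reads in CD, 3, 3 and 0 in HFD, and 6, 7 and 4 in HFD_IO. Both had intermediate means in HFD_IO. Mir6955 (chr15:78891840-78891913) had 9, 12 and 14 reads in CD, 1, 2 and 2 in HFD, and 1, 3 and 1 in HFD_IO. Mir1943 (chr15:79375228-79375300), in Tmem184b, had 11, 17 and 17 reads in CD, 4, 3 and 1 in HFD, and 2, 7 and 3 in HFD_IO. The log2 differences in HFD were -2.65 ± 0.54 for Mir1898, -2.43 ± 0.50 for Mir3058, -2.05 ± 0.28 for Mir6955 and -2.03 ± 0.39 for Mir1943 (limma adjusted p = 0.00606, 0.00588, 0.00126 and 0.00464), and all 4 held under voom and with each library left out.

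Several genes called lower in HFD had no read there at all. Mir343, partly in an exon of Ercc2, had 3, 8 and 4 reads in CD, none in HFD, and 6, 3 and 0 in HFD_IO, which is at least 4.69-fold lower in HFD against a floor of 3 reads over the group. Mir1957a, in the glucose transporter gene Slc2a1, had 7, 1 and 4 reads in CD, none in HFD, and 0, 2 and 0 in HFD_IO (at least 3.68-fold lower). The call of Mir343 was lost without CD_2 (limma adjusted p = 0.0510) and that of Mir1957a without CD_3 (adjusted p = 0.0520). Both genes entered through no HFD library, so these calls are a description. Gm24135 had 5, 8 and 2 reads in CD, none in HFD, and 0, 0 and 1 in HFD_IO (at least 4.68-fold lower). Mir343, Mir1957a and Gm24135 were below every CD library in all HFD libraries, as was Gm23841, with 3, 6 and 6 reads in CD, none in HFD, and 1, 0 and 2 in HFD_IO (at least 4.67-fold lower). Mir7030 had 3, 2 and 4 reads in CD, 0, 0 and 1 in HFD, and none in HFD_IO. Gm27415, antisense in Ppp1r2, had 8, 5 and 3 reads in CD, 0, 0 and 1 in HFD, and 3, 2 and 1 in HFD_IO. The calls of Mir7030 and Gm27415 held with each library left out (limma adjusted p = 0.00396 and 0.00346 with all libraries). Gm27415 entered through no HFD library, and Mir7030 could not have met the rule without its CD libraries, so both calls are a description. Mir7052, read more, had 23, 19 and 11 reads in CD, 15, 3 and 3 in HFD, and 5, 4 and 4 in HFD_IO, and its call in HFD (-1.39 ± 0.47, limma adjusted p = 0.0440) was lost without any of 7 libraries and under voom. Mir186, in Zranb2, had 13, 11 and 20 reads in CD, 9, 8 and 1 in HFD, and 18, 7 and 6 in HFD_IO, and did not pass (limma adjusted p = 0.0980). The other 10 genes called lower had log2 differences from -1.64 (Mir6365) to -1.05 (Mir3067), and each lost its call without at least 1 of the libraries.

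Near copies bear on some of these counts. Of the 105 genes, 20 have another microRNA row of at least 80% sequence identity, and 6 have an identical one, so reads could be split or placed between copies. Gm24135 has 46 such rows, 1 of them identical, and Gm23802, with 2 edits to Gm24135, had 6, 2 and 4 reads in CD, 1, 2 and 0 in HFD, and 4, 1 and 2 in HFD_IO (limma adjusted p = 0.0510 in HFD against CD). None of the vascular genes called lower has a near copy of this kind.

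Other short or intronic RNAs were lower in HFD too, and so were classes of longer non-coding RNA. The median log2 difference from CD was -0.99 over 22 genes of the biotype sense_intronic, of which 17 were lower. It was -0.89 over 51 snRNA genes, with 14 lower, and -0.82 over 76 snoRNA genes, with 18 lower. Over the 218 other tested genes of at most 188 bases it was -0.70, with 47 lower and 4 higher, and over 12083 protein-coding genes it was 0.07. The share lower among the microRNA genes, 27.6%, therefore lay beside 21.6% among other genes as short. The part of short length, of intronic RNA or of library preparation in the microRNA result was not tested.

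The second comparison asks what iron adds to the high fat diet. Of the 105 genes, 7 were higher in HFD_IO than in HFD and none was lower (limma, adjusted p below 0.05), beside 14.1% higher and 14.5% lower among all genes. At an unadjusted p below 0.05, 17 were higher and none lower, and voom called 3 higher and none lower. The median log2 difference was 0.39 over the 105 genes, or 0.52 with the floor, against -4.19e-05 over all genes. It became 1.05 with a pseudocount of 0.1, 0.14 with one of 5 and 0.72 under TPM. The HFD_IO libraries lay wholly above the HFD libraries in 16 genes and wholly below in 1, while the groups did not overlap in 48.5% of all genes. This comparison and the first share the HFD libraries.

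Gm44483 and Gm22655 were among the 7 genes. Gm22655 (chr7:101881184-101881279), in an intron of Anapc15, had no read in CD, 1, 0 and 0 in HFD, and 6, 8 and 5 in HFD_IO. Its level in HFD_IO was 3.70 ± 0.956 FPKM (SD, n = 3), at least 6.43-fold higher than in CD. It entered through the HFD_IO libraries alone and so had to differ, and its values are a description with no test. Gm44483 (chr5:4802457-4802553), outside other genes, had 0, 3 and 1 reads in CD, 0, 0 and 1 in HFD, and 7, 5 and 5 in HFD_IO, with a log2 difference from HFD of 1.85 ± 0.35 (limma adjusted p = 0.00635) that held with every library left out and under voom. The HFD_IO libraries of Gm44483 were enough by themselves to meet the rule, so this call too is a description. In both genes every HFD_IO library was above every other library. Both sequences are repetitive. Of the 97 bases of Gm44483, 79 (81.4%) are a run of the triplet CAG, shown in capitals, and Gm22655 has 12 other microRNA rows of at least 80% identity, the closest at 90.6%.
Gm44483: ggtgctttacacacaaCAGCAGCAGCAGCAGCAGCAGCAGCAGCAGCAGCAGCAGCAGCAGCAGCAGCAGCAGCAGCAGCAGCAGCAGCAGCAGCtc
Gm22655: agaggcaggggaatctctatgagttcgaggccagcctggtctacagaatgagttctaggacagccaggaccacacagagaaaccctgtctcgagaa
Gm22355, a near copy of Gm22655 with 10 edits that lies in Tmem189, had 0, 1 and 1 reads in CD, 3, 2 and 0 in HFD, and 1, 2 and 1 in HFD_IO, so the copies did not move alike in these counts.

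The other 5 calls did not hold in every run. Mir10a returned from 0 or 1 read in HFD to 2, 3 and 6 in HFD_IO (1.26 ± 0.32, limma adjusted p = 0.0191), close to its 3 to 7 reads in CD. Mir5119, in Cdk12, had 2, 1 and 2 reads in CD, 1, 0 and 1 in HFD, and 14, 3 and 2 in HFD_IO, so that most of its rise lay in HFD_IO_1. The log2 difference of Mir5119 was 1.79 ± 0.54 (limma adjusted p = 0.0354). Mir684-1, Gm27514 and Gm25035 had at most 1 read in an HFD library and 1 to 6 in HFD_IO. Each of these 5 calls was lost without at least 3 of the libraries and under voom. All of them but Mir5119 entered through no HFD library, so their calls are a description. Mir145a (1.37 ± 0.54) and Mir143 (2.01 ± 0.67) were higher in every HFD_IO library than in any HFD library, and missed the threshold with limma adjusted p = 0.0871 and 0.0500354. Mir23b (0.27 ± 0.36), Mir5125 (0.05 ± 0.33) and Mir6955 (-0.09 ± 0.28) stayed at about their HFD level, and their HFD_IO and HFD libraries overlapped.

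The third comparison sets high fat diet with iron against chow. Of the 105 genes, 11 were lower in HFD_IO than in CD and 3 were higher, beside 15% lower and 17.5% higher among all genes. The median log2 difference was -0.45 over the 105 genes, or -0.75 with the floor, and -0.01 over all genes. The groups did not overlap in 24 of the 105 genes, 19 of them lower in HFD_IO, and in 47% of all genes. Mir6955 had the largest fall past the threshold (-2.15 ± 0.28, limma adjusted p = 5.19e-04). Mir23b (-1.96 ± 0.36, adjusted p = 0.00299), Mir5125 (-1.95 ± 0.33, adjusted p = 0.00198), Mir7030 (-1.88 ± 0.29, adjusted p = 0.00118) and Mir1943 (-1.69 ± 0.39, adjusted p = 0.0101) followed, all by limma. These 5 calls held in every alternative that tested them. Mir7030 could not have met the rule without its CD libraries, so its call is a description. Gm24135 and Gm23841 (lower) and Gm22655 (higher) were called too, but each entered through CD or HFD_IO alone, so their calls support nothing. The other genes called higher were Gm44483 (1.38, limma adjusted p = 0.0145), lost with a pseudocount of 0.1, and Gm23935. The HFD_IO libraries of Gm44483 were enough by themselves to meet the rule, so its call is a description. Mir7052, Mir1898, Mir697 and Mir6904 were lower too, each lost without at least 4 of the libraries. The Mir6904 call is a description for the same reason as that of Mir7030. Mir697, in Sf3a3, had 12, 6 and 10 reads in CD, 7, 6 and 1 in HFD, and 5, 0 and 2 in HFD_IO. Mir145a (-0.84 ± 0.54, adjusted p = 0.271) and Mir143 (-0.17 ± 0.67, adjusted p = 0.873) were not past the threshold, and their groups overlapped.

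Gm23935 was the most abundant microRNA row, and with its copy Gm24270 it was highest in HFD_IO. It lies antisense within an intron of Zc3h7a and had 2490, 6727 and 6664 reads in CD, 6851, 5148 and 7855 in HFD, and 9993, 19041 and 45499 in HFD_IO, which is 0.015% to 0.256% of all recovered reads. All HFD_IO libraries were above all others, and they differed among themselves by more than the other groups did. The log2 difference of HFD_IO was 2.11 ± 0.59 from CD (limma adjusted p = 0.0225) and 1.57 ± 0.59 from HFD (adjusted p = 0.0745). The call against CD was lost without CD_1, HFD_IO_2 or HFD_IO_3. It was also lost under quantile normalization (adjusted p = 0.562), which gives the highest ranks 1 shared value in every library, and without the filter on low values. Gm24270, with the identical sequence in an intron of Peak1, had 5, 80 and 85 reads in CD, 74, 57 and 62 in HFD, and 110, 198 and 544 in HFD_IO. That is 0.789% to 1.28% of the Gm23935 reads in 8 libraries and 0.201% in CD_1. Its log2 difference of HFD_IO from CD, 2.74 ± 0.97, missed the threshold (limma adjusted p = 0.0572). Gm24187, with the G11A substitution, had at most 4 reads in a library. Since their sequences are identical, Gm23935 and Gm24270 are not independent measurements. Whether their reads come from a microRNA precursor or from another RNA that holds the same sequence was not tested.

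**Figure D4:**
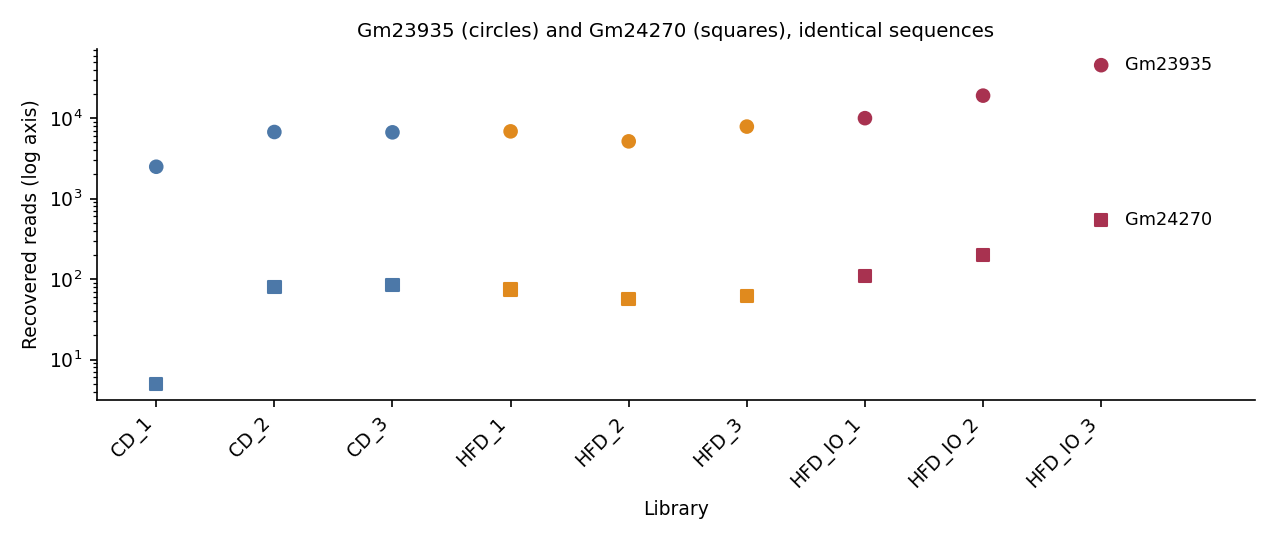
Recovered reads on a log axis for Gm23935 (circles) and Gm24270 (squares) in each library, coloured by group as before. Both rows are highest in HFD_IO_3, with 45499 and 544 reads, and lowest in CD_1, with 2490 and 5.

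The microRNA genes were then set against the genes that contain them. Of the 105, 87 lie within another gene, 69 of them on its strand and 18 on the opposite strand only, 80 of these genes are protein coding, and 18 of the 105 lie within no other gene of the table. Those 18 are the 17 outside other genes in GENCODE M21 and Mirlet7a-1, whose exon in GENCODE belongs to a gene not used here. Of the containing genes, 80 passed the level rule themselves. In HFD against CD, 22 of the genes with a tested host were lower, and the host was lower in 10, not past the threshold in 8 and higher in 4. The difference of the 2 log2 values was tested in limma over all 743 pairs of a tested gene within another tested gene, 81 of them with a microRNA gene inside. For 14 of the 81 the microRNA gene fell further than its host, and for none less, beside 30.7% of all pairs with a difference in either direction. The median difference was -0.62 over the 81 pairs and -0.27 over the other 662, where 147 inner genes were lower and 67 higher. The share of pairs past the threshold was thus no larger for microRNA genes than for all nested pairs.

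Several hosts of these genes were not called lower. Nudt4, a phosphohydrolase gene around Mir3058, had 155 ± 9.40 FPKM in CD against 193 ± 17.8 in HFD, and the difference of Mir3058 from it was -2.74 ± 0.56 (limma over all pairs, adjusted p = 0.00774). Slc2a1, around Mir1957a, rose from 8.54 ± 1.84 to 16.5 ± 0.195 FPKM (log2 0.90, limma adjusted p = 0.00270) while Mir1957a fell to no read (difference -2.82 ± 0.62, adjusted p = 0.0109). Gga1, a Golgi adaptor gene around Mir6955, had 24.0 ± 2.93 FPKM in CD, then 23.2 ± 1.62 in HFD, then 25.6 ± 1.58 in HFD_IO, against a fall of Mir6955 in both high fat groups. The difference of Mir6955 from Gga1 was -2.02 ± 0.30 in HFD (limma adjusted p = 0.00361) and -2.25 ± 0.30 in HFD_IO against CD (adjusted p = 0.00178). Rab35, around Mir7030, rose in HFD (log2 0.34, limma adjusted p = 0.0198), and the difference was -1.88 ± 0.34 (adjusted p = 0.00553). Ppp1r2 around Gm27415 gave a difference of -1.91 ± 0.33 (limma adjusted p = 0.00546), while Ppp1r2 itself was not past the threshold. Mir1957a and Gm27415 entered through no HFD library, so their differences in HFD are a description. Mir7030 could not have met the rule without its CD libraries, so its difference is a description as well. Tmem184b around Mir1943 had 40.4 ± 9.48 FPKM in CD against 31.5 ± 2.14 in HFD (log2 -0.32, limma adjusted p = 0.147), and the difference of Mir1943 from it was -1.71 ± 0.40 (adjusted p = 0.0124).

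**Figure D5:**
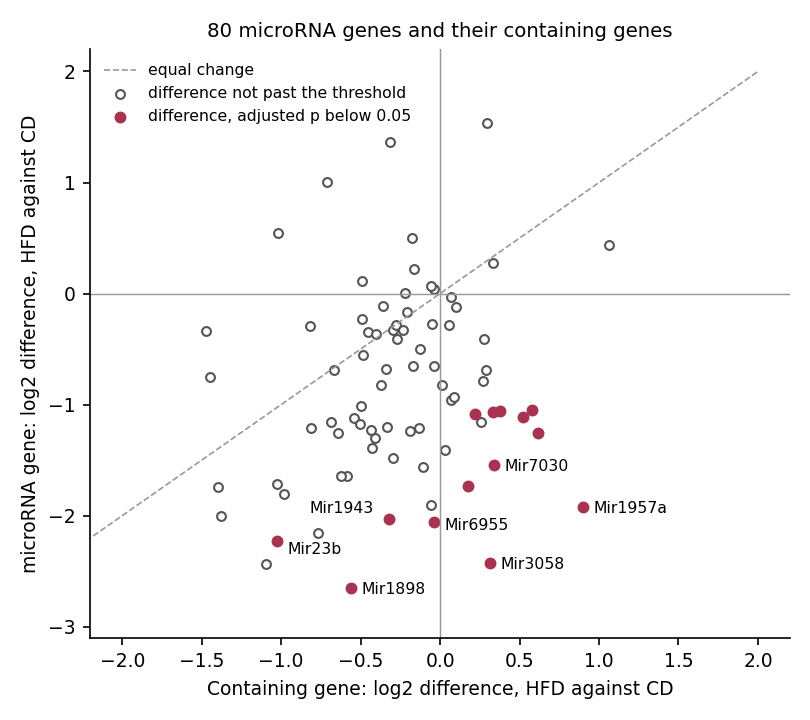
Each point is a microRNA gene with a tested containing gene (80 in all); the horizontal axis is the log2 difference of HFD from CD of the containing gene and the vertical axis that of the microRNA gene, and the dashed line marks equal change. The 14 filled points, whose difference passed the test, all lie below the line.

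Other hosts fell with their microRNA gene. Srrm2 fell from 36.4 ± 10.3 to 13.1 ± 2.27 FPKM (log2 -1.38, limma adjusted p = 0.00214), and the difference of Mir5125 from it was not past the threshold (-0.62 ± 0.41, adjusted p = 0.258). In HFD_IO, Srrm2 was higher than in HFD (log2 0.78, limma adjusted p = 0.0275) while Mir5125 stayed low, a difference of -0.73 ± 0.41 (adjusted p = 0.272). The host of Mir23b, 2010111I01Rik, fell from 41.2 ± 10.7 to 19.3 ± 1.29 FPKM (log2 -1.02, limma adjusted p = 0.00310), less than Mir23b did (difference -1.21 ± 0.29, adjusted p = 0.0147). Zfr fell by 0.56 on the log2 scale (limma adjusted p = 0.00680), less than Mir1898 (difference -2.09 ± 0.55, adjusted p = 0.0196). Limch1 fell with Gm23841 (difference -0.35 ± 0.23, limma adjusted p = 0.260) and Pdzd2 with Gm24135 (difference -0.82 ± 0.40, adjusted p = 0.139).

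The remaining pairs past the threshold rest on few reads. Mir339 in 3110082I17Rik had 6, 2 and 5 reads in CD, 1, 0 and 2 in HFD, and 3, 4 and 2 in HFD_IO, while its host rose (difference -1.64 ± 0.43, limma adjusted p = 0.0198). Mir6395, antisense in Saraf, had 4, 4 and 4 reads in CD, 0, 3 and 0 in HFD, and 3, 1 and 3 in HFD_IO (difference -1.87 ± 0.42, limma adjusted p = 0.0114). Saraf rose in HFD as well. Gm22121, antisense in Ublcp1, had 5, 6 and 8 reads in CD, 5, 1 and 2 in HFD, and 4, 5 and 4 in HFD_IO. Mir3067 in Smoc1 had 1, 2 and 2 reads in CD, none in HFD, and 2, 0 and 1 in HFD_IO. Mir5618 in Tmem123 had 3, 1 and 0 reads in CD, none in HFD, and 0, 0 and 1 in HFD_IO, and Mir7031 in Sh2b3 had 2, 3 and 1, then 1, 0 and 0, then 0, 1 and 2. Mir5618 and Mir7031 were not past the threshold themselves. Like Mir3067, they entered through no HFD library, so these differences are a description. In HFD_IO against HFD, the 1 pair past the threshold was Gm22655 against Anapc15, beside 14.9% of all pairs, and nothing is read from it since Gm22655 entered through HFD_IO alone. In HFD_IO against CD 8 pairs passed, beside 16.8% of all pairs. These were Mir6955, Mir7030, Mir1943, Mir1957a, Mir6904 and Gm22355, which were lower relative to the host, and Gm23935 and, with the same limit, Gm22655, which were higher. Mir7030, Mir1957a and Mir6904 could not have met the rule without their CD libraries, so their differences are a description. Tmem189, around Gm22355, rose from 9.32 ± 0.907 FPKM in CD to 29.0 ± 4.37 in HFD_IO, and Mir6904, partly in an exon of Parp1, had 3, 2 and 4 reads in CD, 3, 0 and 0 in HFD, and 0, 1 and 0 in HFD_IO.

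Genes that make and use microRNAs were read from a list of 34 symbols, of which 30 were tested. In HFD against CD, 11 of the 30 were lower and 1, the nuclear transport GTPase Ran, was higher, with a median log2 difference of -0.34 against 0.06 over all genes, of which 17.6% were lower and 21.8% higher. The largest changes were in the helicase genes Ddx17 (-1.21) and Ddx5 (-0.95), whose products work with Drosha, and in Tnrc6a (-1.11) and Tnrc6b (-0.86), which encode silencing partners of the Argonautes. Ddx17 went from 92.0 ± 12.5 FPKM in CD to 39.1 ± 2.51 in HFD and 55.8 ± 9.36 in HFD_IO, and Tnrc6a from 12.1 ± 0.807 to 5.05 ± 0.559 and 8.95 ± 1.13. Dicer1 was lower in HFD (-0.59, limma adjusted p = 0.00502), with 5.55 ± 0.936 FPKM in CD, then 3.32 ± 0.241 in HFD, then 4.61 ± 0.0917 in HFD_IO. Dgcr8 was lower as well (-0.36, limma adjusted p = 0.0299). Drosha (-0.35, adjusted p = 0.0728), the exporter gene Xpo5 (-0.24, adjusted p = 0.0628) and Ago2 (-0.39, adjusted p = 0.195) did not pass in limma.

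In HFD_IO against HFD, 11 of the 30 genes were higher and none lower by limma, with a median of 0.21, beside 14.1% higher and 14.5% lower among all genes. The largest changes were in Zc3h12a (0.81), which encodes an RNase that cleaves inflammatory messages and microRNA precursors, Tnrc6a (0.71), Tnrc6b (0.71) and the uridylyltransferase gene Tut7 (0.61). Dicer1 was among the 11 (0.38, limma adjusted p = 0.0387), and Drosha, Dgcr8, Xpo5 and Ago2 were not. In HFD_IO against CD, 6 were lower and 1 higher, with a median of -0.15, beside 15% lower and 17.5% higher among all genes, so the share lower was near that of all genes. Zc3h12a was the higher gene (0.98), at 5.54 ± 0.758 FPKM in CD and 11.9 ± 0.176 in HFD_IO, and Ddx17 (-0.71), Ddx5 (-0.68) and Hnrnpa2b1 (-0.46) had the largest falls. Tnrc6a was lower too (-0.40), and Drosha, Dgcr8, Dicer1 and Ago2 were not past the threshold.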

How the data were processed

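Total RNA of 9 aortas was extracted with a column kit and made into libraries with an NEBNext Ultra kit, per the labels' protocols. The authors deposited 1 table of FPKM for all genes, with gene identifiers and biotypes, per the file headers. The submitters' processing notes name HISAT2 and the human build hg38, while the table's identifiers and coordinates are those of mouse GRCm38. The sources used here give neither the counting tool nor its strand setting. Columns were matched to groups by name, and not to single labelled aortas.

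From the deposited FPKM and gene lengths, whole reads were recovered (within 0.05 read for 100.0% of values in each library). Genes with at least 1 FPKM in at least 3 libraries were tested with limma 3.58.1 (R 4.3.3) on log2(FPKM + 1), with 3 group means over 9 libraries, a mean trend and Benjamini-Hochberg adjustment over 13883 genes. A fold change on this scale understates the change of low genes. The script was tested on simulated data. Differences from the containing gene were tested the same way over 743 nested pairs. Alternatives were pseudocounts of 0.1 and 5, other filters, TPM and quantile scaling, voom on recovered reads, another choice of containing gene, and each library left out in turn.

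The members and lists were chosen with earlier results of these data known. Values in every library are given for the 20 called genes with the largest change, the 8 most abundant genes, those that differ from their containing gene and those on the vascular list.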

Additional observations from a re-analysis of the deposited data

How the results depend on the processing

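No result reversed its direction under any alternative. Main counts were 29 genes lower in HFD than in CD, 7 higher in HFD_IO than in HFD, and 11 lower and 3 higher in HFD_IO than in CD. Without the filter on low values, 2 genes were higher in HFD_IO than in HFD and 7 lower than in CD. With at least 5 FPKM in 3 libraries, 22 microRNA genes remained in the test, with 11 lower in HFD than in CD, 1 higher in HFD_IO than in HFD and 7 lower in HFD_IO than in CD. With at least 10 reads in 3 libraries, 15 remained, with 8 lower, then 0 higher, then 5 lower and 1 higher. TPM moved the median of all genes by -0.354, 0.143 and -0.221 in the 3 comparisons and gave 17 lower in HFD_IO than in CD. By voom 17 were lower in HFD than in CD and 3 higher in HFD_IO than in HFD. For differences from the containing gene (14, 1 and 8 in the 3 comparisons), a pseudocount of 0.1 gave 3 in HFD_IO against HFD and 3 in HFD_IO against CD. The cause was not tested. Over all alternatives the median log2 difference of the microRNA genes kept its sign, from -1.74 to -0.32, 0.14 to 1.05 and -0.90 to -0.19.

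With each library left out in turn, the genes past the threshold ranged from 3712 to 6160 in HFD against CD, 2275 to 4944 in HFD_IO against HFD and 3045 to 5036 in HFD_IO against CD. The lowest in the second was without HFD_3, with 2511 without HFD_IO_2 and 2551 without HFD_IO_1. MicroRNA genes lower in HFD than in CD ranged from 20 to 33, and higher from 0 to 2 (1 without CD_1 or HFD_2, 2 without HFD_3). Those higher in HFD_IO than in HFD ranged from 2 (without HFD_3) to 13 (without CD_1), and lower from 0 to 0. In HFD_IO against CD, 2 to 4 were higher and 8 to 15 lower. Differences from the containing gene ranged from 10 to 16, 0 to 4 and 3 to 10. Of these, the second was 4 without CD_1, 2 without HFD_1, 0 without HFD_3 and 3 without HFD_IO_3, and the third was 4 without CD_2 or HFD_IO_1, 5 without CD_3 or HFD_IO_2 and 3 without HFD_IO_3.

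No paired analysis was possible because the labels number the aortas 1 to 9 and the groups share no number. Depth limits most genes, since their median library held 2 reads.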
